A study of Mus musculus with 4 samples.

Results

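The genes described here encode growth factors and the cell surface receptors that bind them, from the PDGF, VEGF, angiopoietin, KIT, HGF, GDNF, neurotrophin, EGF and GAS6 families, together with the collagen-binding receptors DDR1 and DDR2. They were chosen by name, as every row of the deposited expression table whose gene symbol was one of 45 listed members, and all 45 were found among 22802 rows. Of these, 21 encode ligands and 24 encode receptors. RNA sequencing compared 2 laminin-positive with 2 laminin-negative samples of sorted interstitial cells from mouse testis at postnatal day 10. All 4 samples came from C57BL/6J mice that carried both mFLE-Cre and CAG-CAT-EGFP, a reporter that makes EGFP in cells in which Cre has acted and in their descendants. The cells that express this Cre are not named in the sources used here, and no group without the transgenes was analysed. The sample labels call both populations EGFP-positive, whereas the design text calls the laminin-positive cells EGFP-positive and the laminin-negative cells weak in EGFP, so a difference in EGFP level and one in laminin staining cannot be told apart. The labels do not say whether samples of a population came from separate mice. The p-values therefore reflect only how far samples of a population differ, with variance shared across genes, and that spread could be technical.

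Most of the receptors are tyrosine kinases: a secreted or membrane-bound ligand joins receptors into dimers, which phosphorylate each other and switch on the RAS to MAPK and the PI3K to AKT cascades. In the testis, PDGF signalling is known for its part in the formation of peritubular myoid and Leydig cells, GDNF for the upkeep of spermatogonial stem cells, and KIT ligand for its action on spermatogonia and Leydig cells. VEGF and angiopoietin signals act mostly on endothelial cells, while GAS6 and its receptors take part in the clearance of dying cells.

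Levels are in FPKM, fragments mapped to a transcript, scaled by its length and by the depth of the library. Comparisons between libraries also depend on how the libraries were scaled, which the sources used here do not give. With equal FPKM sums, 4273 genes were called higher in laminin-positive cells and 2371 lower, against 3288 and 3245 with the values as deposited. The sum over a library lay between 491475 and 548986 FPKM, and between 11794 and 12011 rows reached 1 FPKM. The correlation of log2(FPKM + 1) over tested genes was 0.996 within the laminin-positive and 0.994 within the laminin-negative samples, against 0.898 to 0.903 between them, as a description over 12348 genes that are not independent. All 8 Leydig cell markers were lower in laminin-positive cells, with summed FPKM of 195 to 246 in laminin-positive against 4796 to 5057 in laminin-negative libraries. All 10 smooth muscle and peritubular myoid markers were higher, at 8300.1 to 8436 against 444 to 452 FPKM, as were all 7 pericyte markers, at 316 to 323 against 46.4 to 49.9 FPKM. Markers of macrophages were higher in 9 of 9 tested cases of 12 measured (55.2 to 64.0 against 5.37 to 10.8 FPKM), of which 3 still met the filter, and were called, without either laminin-positive replicate. Germ cell markers were higher in 9 of 9 cases (52.9 to 53.99 against 16.8 to 18.1 FPKM). No gene of these 5 lists was at 0 in every library. In sorted samples of this kind, fewer cells of a type and less RNA per cell cannot be told apart, which holds for every difference below.

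Of the 45 members, 31 reached 1 FPKM in at least 2 libraries and were tested. By limma with Benjamini-Hochberg adjustment over all tested genes and a threshold of 0.05, 12 of the 31 (38.7%) were called higher in laminin-positive cells and 15 (48.4%) lower. Over all 12348 tested genes 26.6% were called higher and 26.3% lower. Among the 12 higher were 6 ligands and 6 receptors, and among the 15 lower 7 ligands and 8 receptors. Differing by at least 1 on the log2 scale as well, 5 members were higher and 9 lower, where 7.29% and 5.89% of all tested genes did so. Log2 differences throughout are laminin-positive minus laminin-negative on the log2(FPKM + 1) scale, which understates changes near or below 1 FPKM. Where populations are said not to overlap, this only describes 2 libraries against 2. An exact permutation test of that size cannot go below p = 0.333. The share of all tested genes without overlap was not counted, while 52.9% of them were called in either direction. Lack of overlap is therefore not read as a trait of these members. Pdgfb, Vegfc, Tek and Nrg1 passed the filter through 1 population only, so these counts are not evidence about the families as such. Without variance shared across genes, 12 of the 27 calls were lost, namely those of Pdgfa, Pdgfb, Pdgfc, Pdgfra, Tek, Gfra2, Ngfr, Ntrk2, Erbb2, Axl, Ddr1 and Ddr2. The count of receptors called lower was 4 instead of 8 without laminin-negative replicate 1 and to 5 without laminin-positive replicate 1 or with equal FPKM sums.

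**Figure D1:**
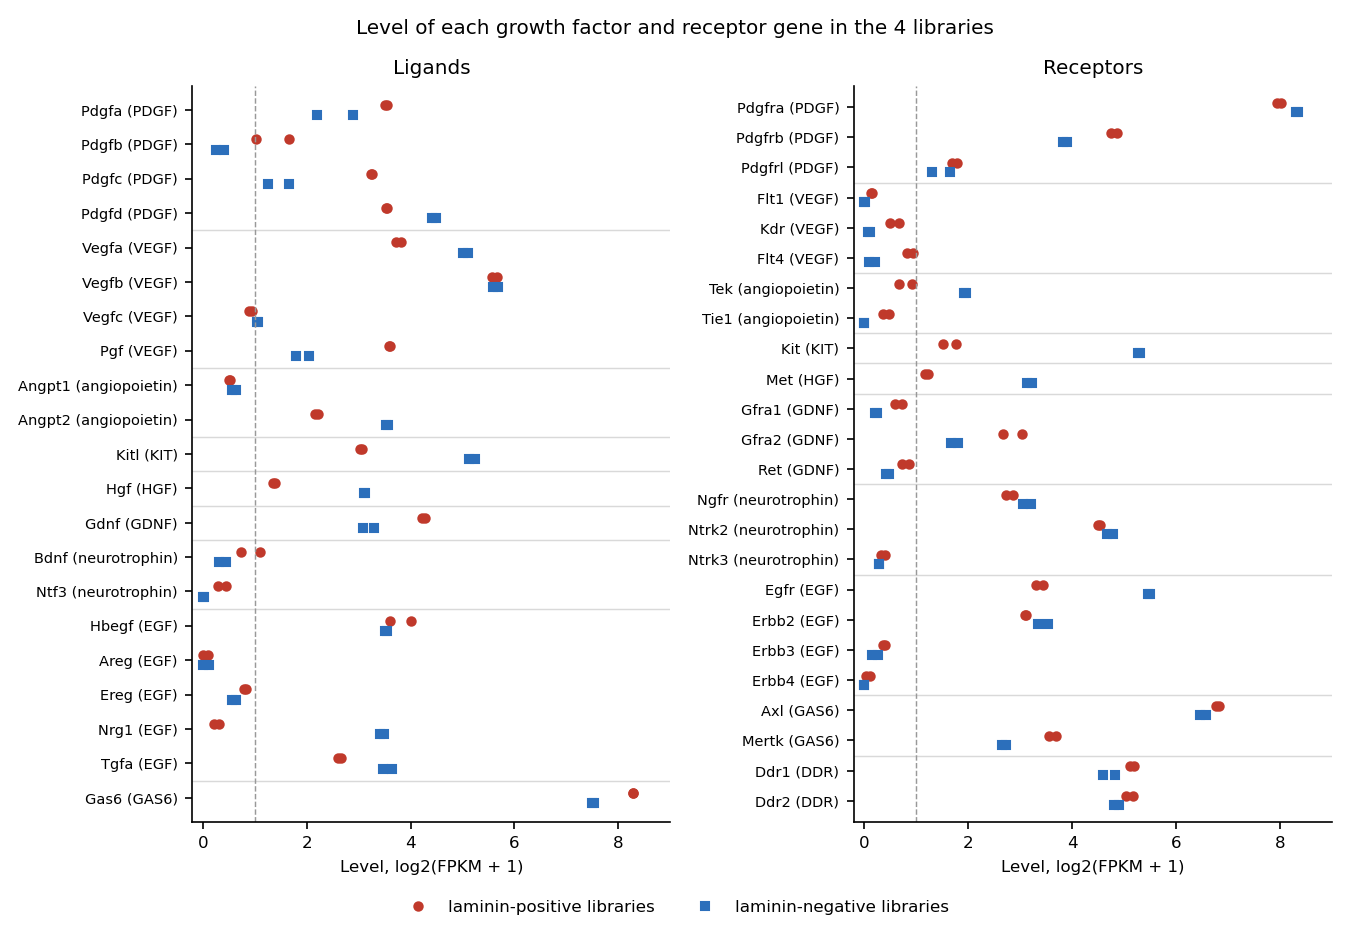
Level of each of the 45 members as log2(FPKM + 1) on the horizontal axis, with ligands in the left panel and receptors in the right one. Red circles are the 2 laminin-positive and blue squares the 2 laminin-negative libraries, and the dashed line marks 1 FPKM. Pdgfra, Gas6 and Axl have the highest levels, while Flt1, Areg and Erbb4 lie near 0 in every library.

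**Figure D2:**
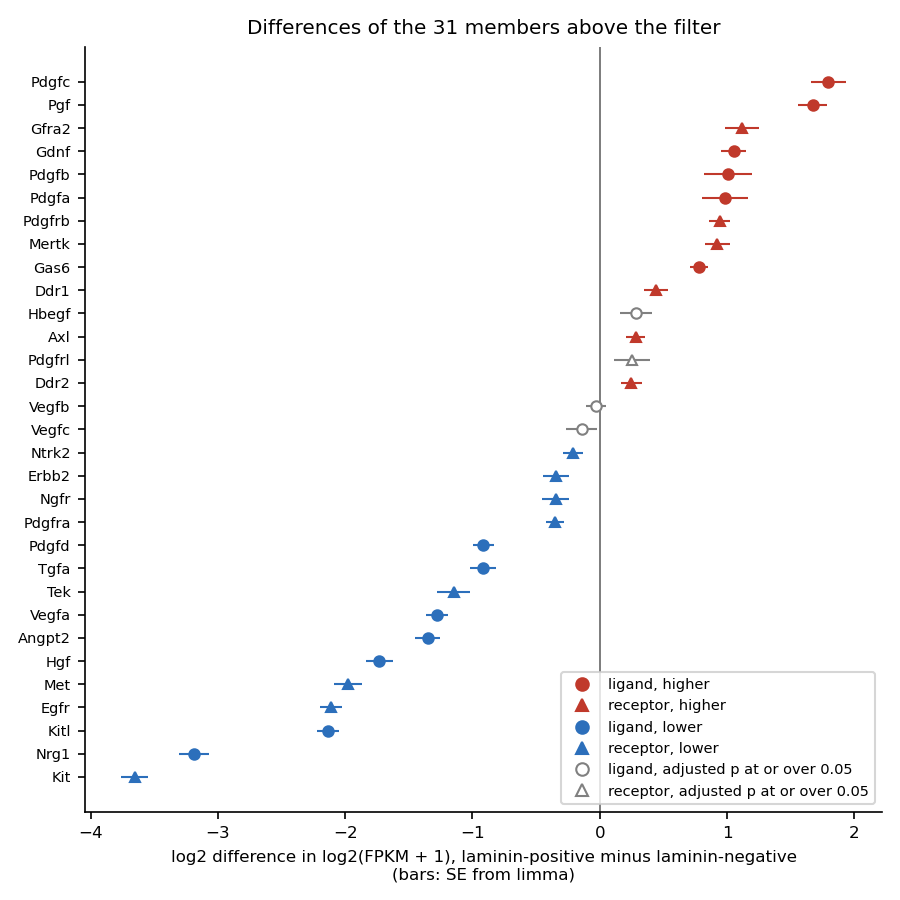
Log2 difference of the 31 tested members (horizontal axis), laminin-positive minus laminin-negative, with the SE from limma as bars. Circles are ligands and triangles receptors. Red marks the 12 members called higher, blue the 15 called lower and open grey symbols the 4 past no threshold. Kit (−3.65) and Nrg1 (−3.19) lie farthest to the left and Pdgfc (1.80) and Pgf (1.67) farthest to the right.

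The KIT pair was lower on both sides. Kit, the receptor tyrosine kinase gene (chromosome 5, 75574916 to 75656722, GRCm38), had 2.39 and 1.84 FPKM in laminin-positive against 38.7 and 37.4 FPKM in laminin-negative libraries. Its ligand gene Kitl (chromosome 10, 100015630 to 100100416) had 7.37 and 7.17 against 34.0 and 36.7 FPKM. The populations did not overlap for either gene, and the laminin-negative cells held receptor and ligand at about the same level. Kit differed 18.0-fold between the population means (log2 difference −3.65, SE 0.11, limma adjusted p = 7.73e-10), a larger difference than the 4.87-fold one of Kitl (−2.14, SE 0.08, adjusted p = 7.62e-09). Within a library, the ratio of Kitl to Kit was 3.08 and 3.90 in laminin-positive and 0.881 and 0.983 in laminin-negative cells. This ratio does not depend on scaling between libraries. Leydig cell markers, 8 of 8 of which were lower in laminin-positive cells, moved with Kit and Kitl, and germ cell markers, 9 of 9 of which were higher, moved the other way. The part of either cell type in the result was not tested.

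Sequence upstream of the KIT pair and of Gas6 with Mertk, examples of a pair lower and a pair higher on both sides, is shown from the RefSeq promoter table (GRCm38.p6), 5′ to 3′ on the strand of the gene. The table's windows of 250 bases end at the outermost RefSeq start, and only the bases that also lie before the outermost GENCODE start are printed, which leaves 59 bases for Kitl and 179 for Kit and the whole window for Gas6 and Mertk. Capitals mark the GC box GGGCGG or its reverse complement. The stretches are chr10:100015571-100015629 (plus strand) for Kitl, chr5:75574737-75574915 (plus strand) for Kit, chr8:13494536-13494785 (minus strand) for Gas6 and chr2:128698665-128698914 (plus strand) for Mertk.
Kitl: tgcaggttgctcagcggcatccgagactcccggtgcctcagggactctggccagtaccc
Kit: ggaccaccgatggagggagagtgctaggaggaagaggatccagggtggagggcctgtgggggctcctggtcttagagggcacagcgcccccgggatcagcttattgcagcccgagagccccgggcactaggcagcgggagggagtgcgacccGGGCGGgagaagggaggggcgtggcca
Gas6: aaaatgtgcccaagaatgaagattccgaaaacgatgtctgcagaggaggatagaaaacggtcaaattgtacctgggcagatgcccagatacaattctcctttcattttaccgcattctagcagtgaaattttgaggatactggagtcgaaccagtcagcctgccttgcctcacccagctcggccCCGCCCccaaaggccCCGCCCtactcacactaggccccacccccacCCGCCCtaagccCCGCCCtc
Mertk: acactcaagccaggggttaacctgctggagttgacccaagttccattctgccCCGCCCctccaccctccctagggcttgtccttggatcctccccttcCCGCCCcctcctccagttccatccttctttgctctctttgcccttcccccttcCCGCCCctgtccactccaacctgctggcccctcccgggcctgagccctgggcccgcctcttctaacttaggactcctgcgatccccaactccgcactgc
The printed stretches held 0 matches to the GC box in Kitl, 1 in Kit, 4 in Gas6 and 3 in Mertk. These stretches differ in length, and over the whole windows of 250 bases the counts were 3 in Kitl, 1 in Kit, 4 in Gas6 and 3 in Mertk. The G and C content of the printed stretches was 66.1% in Kitl, 69.3% in Kit, 54.8% in Gas6 and 63.6% in Mertk. Windows of 250 bases were found for 33 of the 45 members, of which 14 reached past the outermost GENCODE start into the gene, and the motif counts that follow are over the whole windows. Searched on both strands, GGGCGG was in 6 of 9 windows of members called higher and 7 of 13 of members called lower, against 32.7% of 32851 promoters of the same length. The CCAAT box CCAAT was in 3 of the 33 windows, against 33.8% of all promoters. The half-site AAGGTCA of nuclear receptors was in 0 of the 33 windows, against 4.08% of all. TGGGAA, the core of RBPJ sites, was in 0 of the 9 windows of members called higher and 5 of the 13 of members called lower. It was in 4 of the 9 windows of members below the filter and in 9 of the 33 in all, against 21.6% of all promoters. The median G and C content was 56.8% for members called higher, 62.8% for those called lower and 60.4% for those below the filter. Over all promoters it was 52.4%, and its part in the motif counts was not tested. The AP-1 site TGANTCA was in 1 (Met) of the 33, against 6.75%, the TEAD core GGAATG in 4, against 12.6%, and the CArG box of serum response factor in 1 (Pdgfc), against 1.47%. A match describes letters in the window and is no measurement of binding.

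The HGF pair showed the same arrangement. The ligand gene Hgf (chromosome 5, 16553495 to 16620152) had 1.62 and 1.56 FPKM in laminin-positive against 7.66 and 7.55 FPKM in laminin-negative cells. Met, which encodes the only known receptor of HGF (chromosome 6, 17463800 to 17573980), had 1.35 and 1.23 against 8.34 and 7.72 FPKM. Both laminin-negative libraries stood above both laminin-positive ones for each gene, with little spread between replicates. The differences were 4.78-fold for Hgf (log2 difference −1.73, SE 0.11, limma adjusted p = 2.21e-07) and 6.22-fold for Met (−1.98, SE 0.11, adjusted p = 1.03e-07). Spint2, which encodes an inhibitor of the proteases that activate HGF, moved the other way (log2 difference 2.48, limma adjusted p = 3.01e-08). It had 46.2 and 41.0 FPKM in laminin-positive against 6.05 and 7.99 FPKM in laminin-negative cells. Hgfac and St14, genes of such proteases, were below the filter. They averaged 0.0712 and 0.0172 FPKM in laminin-positive against 0.137 and 0.0123 FPKM in laminin-negative cells. The activation of HGF was not tested.

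In the EGF family, 2 of 5 ligands (Nrg1 and Tgfa) and 2 of 4 receptors (Egfr and Erbb2) were called lower in laminin-positive cells. None was called higher. Over all tested genes 26.3% were called lower and 26.6% higher, shares that also stand beside the family and list counts below. Nrg1 passed the filter through the laminin-negative libraries only. Hbegf did not pass the test, and Areg, Ereg, Erbb3 and Erbb4 were below the filter. Egfr, the receptor of TGFα, amphiregulin, epiregulin and HB-EGF (chromosome 11, 16752203 to 16918158), had 9.77 and 8.81 FPKM in laminin-positive against 44.1 and 42.8 FPKM in laminin-negative libraries. That is a 4.68-fold difference with no overlap (log2 difference −2.11, SE 0.08, limma adjusted p = 7.82e-09). Erbb2, the coreceptor with no ligand of its own, differed far less, at 7.48 and 7.65 against 10.6 and 9.13 FPKM (−0.34, adjusted p = 0.0163). This Erbb2 call did not hold on leaving out laminin-negative replicate 1 (0.0768) or laminin-positive replicate 1 (0.0600), or on scaling to equal sums (0.104), and its adjusted p spanned 0.00436 to 0.152 in the alternatives. Erbb3 and Erbb4, the neuregulin receptors, were below the filter at 0.102 to 0.308 FPKM and 0 to 0.0703 FPKM. The makeup of the receptor family thus differed: Egfr made up 55.6% and 52.3% of the summed FPKM of the EGF family receptors in laminin-positive against 80.3% and 82.3% in laminin-negative cells.

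Among the ligands of these receptors, Nrg1 showed the largest difference. The neuregulin gene Nrg1 had 0.159 and 0.246 FPKM in laminin-positive against 10.3 and 9.62 FPKM in laminin-negative libraries (log2 difference −3.19, SE 0.11, limma adjusted p = 3.61e-09). The locus in the deposited table spans 9.37% of the annotated gene (chromosome 8, 31814551 to 32884029), so the value covers only the transcripts at that end, and the 49.2-fold ratio rests on a mean of 0.202 FPKM in laminin-positive cells. Tgfa had 5.30 and 5.11 against 11.4 and 10.0 FPKM, a 2.06-fold difference (−0.92, SE 0.10, adjusted p = 2.51e-05). Hbegf, the gene of HB-EGF, had 15.2 and 11.1 against 10.4 and 10.6 FPKM, and laminin-positive replicate 1 stood apart from the other 3 libraries. It did not pass the test (0.28, adjusted p = 0.0814), but did so without laminin-positive replicate 2 (0.49, adjusted p = 0.00167) and on scaling to equal sums (0.40, adjusted p = 0.0162). Its adjusted p spanned 0.00167 to 0.693. Areg, at 0 and 0.0736 against 0.0866 and 0 FPKM, was barely measured, and Ereg had 0.724 and 0.775 against 0.478 and 0.560 FPKM. Summed over the 5 ligands, the level was 21.3 and 17.3 FPKM in laminin-positive and 32.6 and 30.8 FPKM in laminin-negative cells, with Hbegf at 71.0% and 64.2% against 31.8% and 34.5% of that sum.

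The PDGF family was split between its members in both directions. Pdgfa, whose product acts through PDGFRα (chromosome 5, 138976014 to 138997370), had 10.4 and 10.6 FPKM in laminin-positive against 6.42 and 3.58 FPKM in laminin-negative cells. Pdgfc, another ligand of PDGFRα (chromosome 3, 81036416 to 81214040), had 8.44 and 8.61 against 1.38 and 2.15 FPKM. Pdgfd, a ligand of PDGFRβ (chromosome 9, 6168584 to 6378850), ran the other way at 10.5 and 10.7 against 20.2 and 21.5 FPKM. The populations did not overlap for any of the 3. Pdgfc showed the larger rise, 4.82-fold (log2 difference 1.80, SE 0.14, limma adjusted p = 1.28e-06), and Pdgfa was 2.11-fold higher (0.98, SE 0.18, adjusted p = 9.79e-04). Its laminin-negative libraries differed from each other, and its log2 difference was 0.64 without laminin-negative replicate 2 and 1.33 without laminin-negative replicate 1. Pdgfd was 1.97-fold lower (−0.91, SE 0.09, adjusted p = 6.28e-06). Pdgfb, the ligand of both receptors, was at 1.04 and 2.16 against 0.331 and 0.200 FPKM, the lowest of the 4. It was called higher (1.01, adjusted p = 0.00115), having passed the filter through the laminin-positive libraries.

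Because these changes offset each other, the summed PDGF ligand level was alike in size, at 30.4 and 32.2 FPKM in laminin-positive and 28.3 and 27.5 FPKM in laminin-negative cells, while its makeup was not. Pdgfd supplied 34.4% and 33.4% of the sum in laminin-positive against 71.3% and 78.4% in laminin-negative cells. Pdgfc supplied 27.8% and 26.8% against 4.89% and 7.84%. The receptors shifted in a different way. Pdgfra (chromosome 5, 75152292 to 75198215) had the highest level of all members in laminin-negative cells and was abundant in both populations, at 244 and 258 against 322 and 317 FPKM, a log2 difference of −0.35. Pdgfrb, at 25.8 and 27.9 against 13.1 and 13.9 FPKM, was 1.99-fold higher (0.94, SE 0.08, limma adjusted p = 4.43e-06). The ratio of Pdgfra to Pdgfrb within a library was 9.45 and 9.23 in laminin-positive and 24.6 and 22.8 in laminin-negative cells. With 2 libraries against 2, the exact permutation test of such a ratio cannot go below p = 0.333, so it is given as a description. Pdgfrl, a receptor-like gene without a kinase domain, had 2.42 and 2.23 against 2.15 and 1.46 FPKM and did not pass the test (adjusted p = 0.152). It did so without laminin-negative replicate 1 (0.43, adjusted p = 0.0256), in a range of 0.0256 to 0.691. Pericytes and smooth muscle cells are known to express Pdgfrb, and their markers were higher in the same libraries (316 to 323 FPKM in sum for pericytes in laminin-positive cells, against 46.4 to 49.9 FPKM in laminin-negative cells). Their part in the result was not tested.

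Plau and Plat, whose protease products release active PDGF-D and PDGF-C, were read beside their substrates. Plau had 2.64 and 2.19 FPKM in laminin-positive against 17.7 and 19.9 FPKM in laminin-negative cells (log2 difference −2.54, SE 0.11, limma adjusted p = 1.50e-08), the direction of Pdgfd. Plat averaged 4.21 against 3.29 FPKM and did not pass the test (adjusted p = 0.0597).

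**Figure D3:**
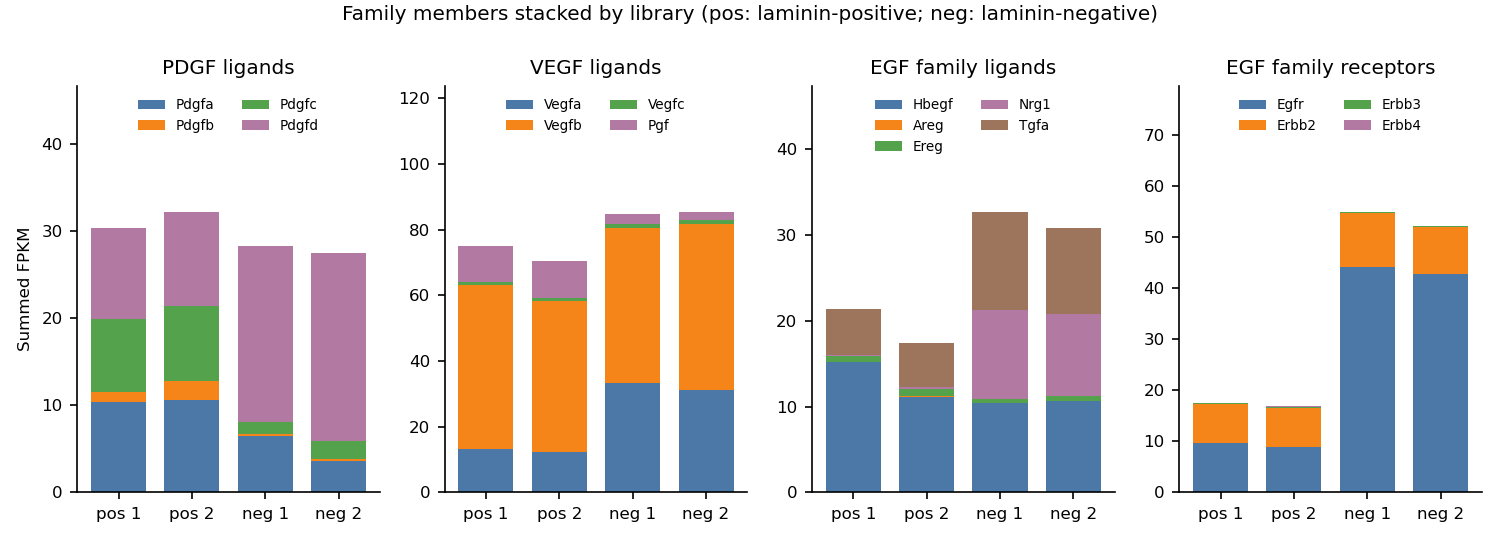
Summed FPKM of PDGF ligands, VEGF ligands, EGF family ligands and EGF family receptors (vertical axes), stacked by gene, in each of the 4 libraries. The PDGF ligand sums are of like height (27.5 to 32.2 FPKM) with a smaller Pdgfd part in the laminin-positive libraries, and the EGF family receptor sums are 17.6 and 16.8 FPKM in laminin-positive against 54.9 and 52.1 FPKM in laminin-negative libraries.

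Of the 4 VEGF ligands 1, Pgf, was called higher and 1, Vegfa, lower, and the 3 receptors Flt1, Kdr and Flt4 were below the filter. Vegfa, the main signal for blood vessel growth (chromosome 17, 46016993 to 46032369), had 13.2 and 12.2 FPKM in laminin-positive against 33.4 and 31.1 FPKM in laminin-negative cells. Pgf, the placental growth factor gene (chromosome 12, 85166635 to 85177790), had 10.97 and 11.2 against 3.14 and 2.46 FPKM. Vegfb was the most abundant of the family at 49.8 and 46.2 against 47.1 and 50.7 FPKM, with overlapping populations. Vegfa was 2.54-fold lower (log2 difference −1.28, SE 0.08, limma adjusted p = 3.98e-07) and Pgf 3.96-fold higher (1.67, SE 0.11, adjusted p = 5.14e-07). Vegfb did not pass (−0.03, adjusted p = 0.795), and the sign of its difference turned with the scaling and with the replicates used. Vegfc, a ligand for lymphatic vessels, lay near the filter at 0.918 and 0.847 against 1.07 and 1.08 FPKM (adjusted p = 0.360).

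Of the VEGF receptors, Flt1 had 0.0880 and 0.101 FPKM in laminin-positive against 0 and 0.0107 FPKM in laminin-negative cells. Kdr, the main receptor of VEGF-A, had 0.586 and 0.411 against 0.0803 and 0.0437 FPKM, and Flt4, that of VEGF-C, 0.758 and 0.918 against 0.155 and 0.0684 FPKM. All 3 were below the filter, with both laminin-positive libraries above both laminin-negative ones. Among endothelial markers, Pecam1 was at 0.869 and 0.615 against 0.126 and 0.141 FPKM, and 9 of the 14 did not reach the filter. The summed endothelial list was nevertheless 27.7 to 31.1 FPKM in laminin-positive and 191 to 199.6 FPKM in laminin-negative cells, because Cdh5 had 9.89 and 9.25 against 165 and 173 FPKM. Of the list, 2 genes (Emcn and Esam) were called higher and 2 (Cdh5 and Sox18) lower. Without either laminin-positive replicate Emcn and Esam no longer met the filter and were not tested. Sox17 was at 0 in the laminin-negative libraries. The part of endothelial cells in these values was not tested.

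In the wider VEGF family, Figf, the gene of VEGF-D, was at 1.47 and 2.16 FPKM in laminin-positive against 24.5 and 27.2 FPKM in laminin-negative libraries. It was the third most abundant VEGF ligand of the laminin-negative cells, after Vegfb and Vegfa (log2 difference −3.26, limma adjusted p = 6.17e-09). The coreceptor gene Nrp2, which binds VEGF and semaphorins, had 1.25 and 1.28 against 19.6 and 15.6 FPKM (−3.03, adjusted p = 7.95e-09), and Nrp1, the related coreceptor, averaged 31.5 against 59.5 FPKM (−0.90, adjusted p = 2.56e-06).

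Angiopoietins act through TIE2, the product of Tek. Angpt2 (chromosome 8, 18690263 to 18741562), which can block or activate TIE2, had 3.68 and 3.47 FPKM in laminin-positive against 10.6 and 10.8 FPKM in laminin-negative cells. Tek (chromosome 4, 94739289 to 94874976) had 0.581 and 0.880 against 2.87 and 2.76 FPKM. Both genes of the pair were lower in laminin-positive cells with no overlap, by 2.99-fold for Angpt2 (log2 difference −1.35, SE 0.10, limma adjusted p = 8.67e-07) and 3.86-fold for Tek (−1.15, SE 0.13, adjusted p = 2.97e-05), although Tek passed the filter through the laminin-negative libraries only. Angpt1, the activating ligand, was low in both at 0.423 and 0.446 against 0.555 and 0.473 FPKM. Tie1, the related receptor without a known ligand of its own, had 0.283 and 0.385 FPKM in laminin-positive libraries and was listed at 0 in both laminin-negative ones. Tek therefore ran against Tie1, Kdr and Flt1, the other vascular receptors. A further angiopoietin gene, Angpt4, had 8.22 and 7.96 against 0.383 and 0.354 FPKM (2.73, adjusted p = 9.90e-09), so the most abundant angiopoietin was Angpt4 in laminin-positive and Angpt2 in laminin-negative cells.

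Of the GDNF ligand and its 3 listed receptors, Gdnf and Gfra2 were called higher in laminin-positive cells, and Gfra1 and Ret were below the filter. Gdnf (chromosome 15, 7810846 to 7837575) had 17.6 and 18.4 FPKM in laminin-positive against 8.84 and 7.53 FPKM in laminin-negative libraries and was higher (log2 difference 1.05, SE 0.10, limma adjusted p = 6.08e-06). Gfra2 (chromosome 14, 70890120 to 70979838), the coreceptor that prefers neurturin, had 5.38 and 7.23 against 2.49 and 2.19 FPKM (1.12, SE 0.14, adjusted p = 4.91e-05). Neither gene overlapped between populations. Gfra1, the coreceptor of GDNF, and Ret, the kinase that signals for both, stayed below the filter, at 0.640 and 0.5004 against 0.147 and 0.177 FPKM for Gfra1 and 0.801 and 0.655 against 0.327 and 0.388 FPKM for Ret. Nrtn, the gene of neurturin, averaged 8.12 FPKM in laminin-positive against 7.88 FPKM in laminin-negative cells (0.05, limma adjusted p = 0.767), and Gfra4 (adjusted p = 0.134) and Pspn (adjusted p = 0.996), a coreceptor and its ligand persephin, did not pass the test either. Peritubular myoid and Sertoli cells are known sources of Gdnf, and undifferentiated spermatogonia carry Gfra1 and Ret. Of 7 tested Sertoli markers of 9 measured, 4 were higher (Amh, Cldn11, Dhh and Aard) and 1, Defb19, lower, with 2 higher without either laminin-positive replicate, when the other 2 no longer met the filter, and 2 lower without laminin-negative replicate 2 or laminin-positive replicate 1. Their sum was 223 to 235 FPKM in laminin-positive and 552 to 590 FPKM in laminin-negative cells, mostly from Defb19. The part of Sertoli, germ and myoid cells in the GDNF values was not tested.

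The listed neurotrophin ligands were scarce and their listed receptors differed little. Bdnf had 1.13 and 0.659 FPKM in laminin-positive against 0.247 and 0.373 FPKM in laminin-negative cells, and Ntf3 0.225 and 0.370 against 0 and 0.0217 FPKM. Ntrk2, the receptor of BDNF, was the most abundant receptor of the family at 21.5 and 22.3 against 26.5 and 24.5 FPKM. Its call sat on the threshold (log2 difference −0.21, limma adjusted p = 0.0498) and was lost under 10 of 14 alternatives, in a range of 0.0292 to 0.422. Ngfr, the p75 receptor that binds every neurotrophin, had 5.59 and 6.25 against 8.24 and 7.33 FPKM (−0.34, adjusted p = 0.0190). That call was lost without laminin-negative replicate 1 (0.0735), without laminin-positive replicate 1 (0.140) and on scaling to equal sums (0.107), and its adjusted p spanned 0.00748 to 0.154. Ntrk3, the receptor of neurotrophin-3, was at 0.252 and 0.311 against 0.222 and 0.209 FPKM. Schwann cell markers, which often accompany Ngfr and Erbb3, summed to 3.17 to 4.14 FPKM in laminin-positive and 1.19 to 1.66 FPKM in laminin-negative cells. Of their 6 genes 1 was tested and called higher, and Cdh19 was at 0 in the laminin-negative libraries.

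Gas6 and its receptors Axl and Mertk were higher in laminin-positive cells. Gas6 (chromosome 8, 13465374 to 13494490), the ligand of the TAM receptors TYRO3, AXL and MERTK, had 311 and 310.4 FPKM in laminin-positive against 183 and 178 FPKM in laminin-negative libraries. Axl (chromosome 7, 25757273 to 25788705) had 109 and 113 against 94.6 and 87.3 FPKM, and Mertk (chromosome 2, 128698956 to 128802894) 10.7 and 11.8 against 5.61 and 5.30 FPKM. None of the 3 overlapped between populations. Gas6 was 1.72-fold higher (log2 difference 0.78, SE 0.07, limma adjusted p = 4.15e-06) and Mertk 2.06-fold (0.92, SE 0.10, adjusted p = 1.85e-05). Axl differed by 1.22-fold (0.28, SE 0.07, adjusted p = 0.00815). Leaving out laminin-positive replicate 2 ended that call (0.0656), and its adjusted p spanned 9.48e-04 to 0.114. The ratio of Axl to Mertk fell to 10.1 and 9.54 in laminin-positive cells, against 16.9 and 16.5 in laminin-negative cells. Pros1, which encodes protein S, the other TAM ligand, moved against Gas6, averaging 41.7 FPKM in laminin-positive and 87.5 FPKM in laminin-negative cells (−1.05, adjusted p = 5.58e-07). Tyro3 averaged 8.96 against 6.51 FPKM (0.41, adjusted p = 0.00522). Macrophages express Mertk, and their 12 measured markers summed to 55.2 to 64.0 against 5.37 to 10.8 FPKM with none at 0 in every library. Their part in the Mertk difference was not tested.

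The collagen receptors Ddr1 and Ddr2 stood at similar levels. Ddr1 had 35.7 and 33.5 FPKM in laminin-positive against 27.4 and 23.2 FPKM in laminin-negative cells (log2 difference 0.44, SE 0.09, limma adjusted p = 0.00220), and Ddr2 31.6 and 35.2 against 29.0 and 26.9 FPKM (0.25, SE 0.08, adjusted p = 0.0301). The call of Ddr2 was lost without laminin-negative replicate 2 (0.108), without laminin-positive replicate 2 (0.267) and without an intensity trend (0.0617), in a range of 0.00538 to 0.267. Of 8 tested collagen ligands of these receptors, 3 were higher (Col4a1, Col4a2 and Col8a1) and 5 lower, with a median log2 difference of −0.64 against 0.01 over all tested genes. Col4a1, a basement membrane chain that DDR1 binds, had 976 and 977 against 387 and 357 FPKM. Col3a1, a fibrillar chain bound by both receptors, had 613 and 624 against 1931 and 1811 FPKM, and Col5a1 93.3 and 94.0 against 200.4 and 184 FPKM.

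Read as ligand and receptor pairs, 31 textbook combinations of members were described. Both genes were called lower in 4 pairs, Kitl with Kit, Hgf with Met, Tgfa with Egfr and Angpt2 with Tek. Both were called higher in 3, Gas6 with Axl, Gas6 with Mertk and Pdgfb with Pdgfrb, of which 1, Gas6 with Mertk, was left without laminin-positive replicate 2 and also without variance shared across genes. Calls went in opposite directions in 4 pairs, all of the PDGF family: Pdgfa, Pdgfb and Pdgfc against Pdgfra, and Pdgfd against Pdgfrb. In 13 pairs the called gene had a partner below the filter, and in 6 neither gene was called. The remaining pair, Hbegf with Egfr, had a call on the receptor side alone. Pdgfb and Tek, in 3 of the pairs named here, passed the filter through 1 population only, so the direction of their calls is not independent of the filter. Pairs share genes, so their number is not a test.

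**Figure D4:**
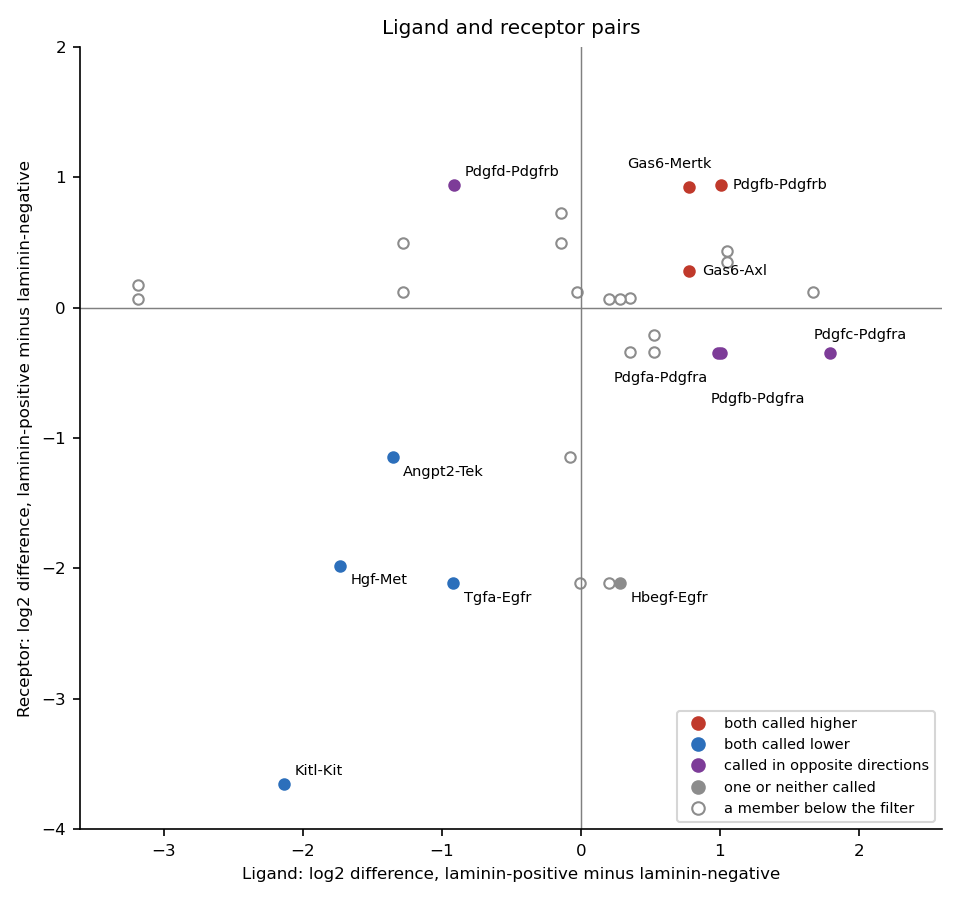
Each of the 31 ligand and receptor pairs is placed by the log2 difference of its ligand (horizontal axis) and of its receptor (vertical axis), laminin-positive minus laminin-negative. Blue marks the 4 pairs with both genes called lower, red the 3 with both called higher, purple the 4 called in opposite directions and grey the rest, with open symbols where a gene was below the filter. Kitl with Kit lies farthest down, at −2.14 and −3.65. The pairs of Pdgfb and of Tek hold a gene that passed the filter through 1 population only.

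The 14 members below the filter were Flt1, Kdr, Flt4, Angpt1, Tie1, Gfra1, Ret, Bdnf, Ntf3, Ntrk3, Areg, Ereg, Erbb3 and Erbb4, of which 9 are receptors. Both laminin-positive libraries lay above both laminin-negative ones for 12 of the 14, and the reverse held for 1, Angpt1. Among the 5907 rows of the table that were below the filter and above 0, 29.6% and 17.7% did so. When no filter was applied, 7 of the 14 were called higher by limma (Kdr, Flt4, Tie1, Gfra1, Ret, Bdnf and Ntf3), where 19.0% of 18255 rows were called higher. Levels this low make the size of a ratio uncertain.

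Downstream of the receptors, feedback inhibitors were more often higher than lower in laminin-positive cells. Of 20 tested genes of 22, 11 were called higher and 2 lower (Spry2 and Dusp5; 3 lower without laminin-positive replicate 1 and 1 without laminin-positive replicate 2 or with equal FPKM sums), with a median log2 difference of 0.47 against 0.01 over all tested genes. The shares of all tested genes to set beside this and the following lists are 26.6% called higher and 26.3% called lower. Errfi1, an inhibitor of EGFR and its relatives, had 289.7 and 309 FPKM in laminin-positive against 62.9 and 66.4 FPKM in laminin-negative cells (log2 difference 2.19, SE 0.07, limma adjusted p = 1.85e-09). Dusp6, the phosphatase of ERK, had 85.6 and 81.5 against 20.01 and 20.97 FPKM (1.98, adjusted p = 5.03e-09). Both are transcribed in response to MAPK signalling as well as restraining it. In laminin-positive cells, 8 tested receptor members were called lower, among them Egfr, Kit and Met, and 6 higher, among them Pdgfrb, Gfra2 and Mertk. Whether the receptor levels bear on Errfi1 and Dusp6 was not tested. Spry1, an inhibitor of RAS activation, had 204 and 196 against 77.3 and 76.8 FPKM (1.37, adjusted p = 4.83e-08), and Rasal2, a RAS GTPase activator, 3.75 and 4.13 against 0.778 and 0.724 FPKM (1.497, adjusted p = 1.64e-06).

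Targets of the MAPK cascade did not move as a group. Of 11 tested, 3 were higher (Etv1, Egr3 and Ccnd1) and 2 lower (Phlda1 and Myc), or 5 and 1 with equal FPKM sums, with a median log2 difference of 0.08. Etv1, an ETS transcription factor, showed the largest difference, at 71.0 and 77.2 FPKM in laminin-positive against 7.30 and 7.67 FPKM in laminin-negative cells (3.14, SE 0.08, limma adjusted p = 3.89e-10). Egr3, an early response gene, had 23.8 and 16.5 against 10.8 and 9.41 FPKM (0.91, adjusted p = 3.43e-04), and Phlda1, another target, 23.2 and 22.8 against 49.3 and 50.3 FPKM (−1.08, adjusted p = 4.88e-07). Ccnd1, the cyclin gene, had 3.65 and 3.78 against 2.06 and 1.82 FPKM (0.68, adjusted p = 5.07e-04). Fos averaged 3185 FPKM in laminin-positive against 2872 FPKM in laminin-negative cells and Egr1 2675 against 2375 FPKM, with limma adjusted p of 0.191 for Fos and 0.1496 for Egr1, neither under the threshold. Tissue dispersal is known to induce both, and its part in these levels was not tested.

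The shared signal transducers were mixed, with 12 of 34 tested genes higher, 9 lower and a median log2 difference of 0.07. Genes of PI3K regulatory subunits went opposite ways. Pik3r2 had 33.3 and 29.8 FPKM in laminin-positive against 70.9 and 64.1 FPKM in laminin-negative cells (log2 difference −1.07, limma adjusted p = 1.67e-06), while Pik3r3 had 5.58 and 6.25 against 2.12 and 1.84 FPKM (1.22, adjusted p = 7.12e-06). Akt1, a kinase downstream of PI3K, averaged 83.0 FPKM in laminin-positive against 148 FPKM in laminin-negative cells (−0.83, adjusted p = 2.22e-06).

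Among coreceptors and further ligands and receptors of these families, 8 of 22 tested genes were higher and 8 lower, with a median log2 difference of 0.02. Without either laminin-positive replicate, 3 of the 8 higher genes still met the filter and were called. Proteases that release ligands and their inhibitors were higher in 4 and lower in 2 of 10 tested cases, with 2 higher without laminin-positive replicate 2. Adam17, the sheddase of TGFα and HB-EGF, had 13.8 and 15.01 FPKM in laminin-positive against 21.2 and 19.6 FPKM in laminin-negative cells (log2 difference −0.47, limma adjusted p = 0.00104). Rhbdf1, whose product helps ADAM17 to mature, went the other way with 105 and 100.1 against 59.6 and 56.7 FPKM (0.81, adjusted p = 4.29e-06).

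**Figure D5:**
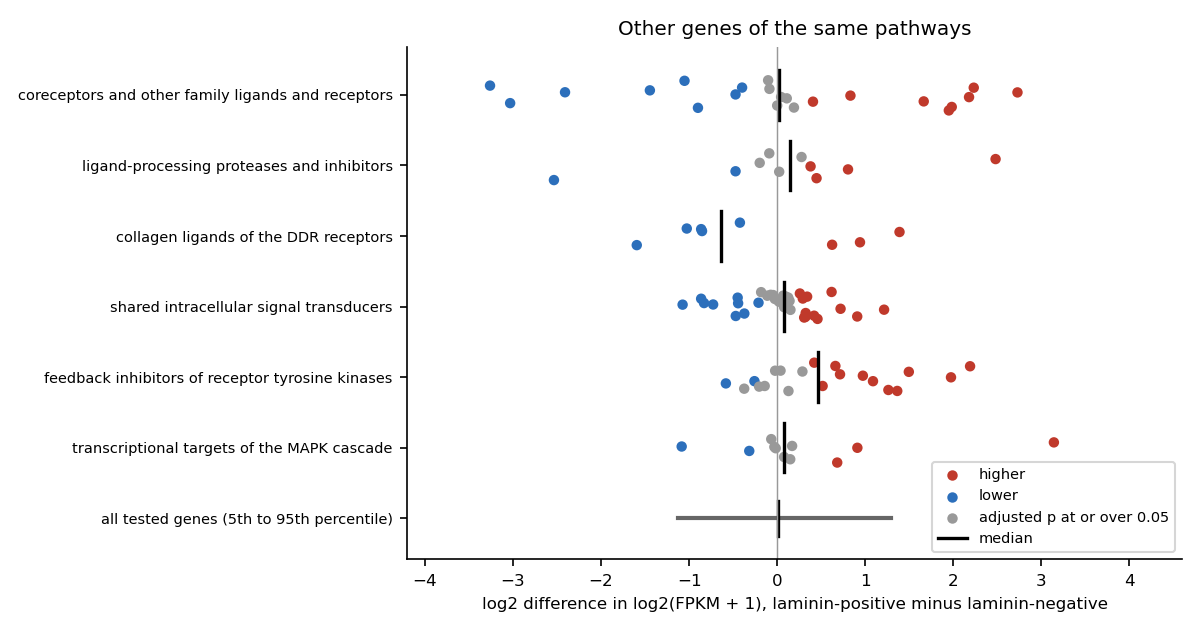
Log2 difference (horizontal axis), laminin-positive minus laminin-negative, of each tested gene in 6 lists of other genes of the same pathways, one list per row. Red points were called higher, blue ones lower and grey ones neither, and the black bar is the median of the list. The bottom row shows the 5th to 95th percentile of all tested genes (−1.12 to 1.30), and the median of feedback inhibitors lies at 0.47.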

How the data were processed

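RNA was sequenced from 2 laminin-positive and 2 laminin-negative sorted samples, with RNeasy micro extraction and NEBNext Ultra Directional libraries, per the labels' protocols. The deposited values are FPKM per gene and library, per the file headers. TopHat2 2.1.1 and Cufflinks 2.2.1 appear in the submitters' processing notes, with no role stated. The sources used here do not give the build, the annotation, the strand setting or how libraries were scaled. Read totals are unknown: of the lowest values of genes with 1 transcript, at most 29.6% came within 0.1 of a whole fragment, where an even spread gives 20%, so counts were not recovered and no counting error is given.

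Genes that reached 1 FPKM in 2 or more libraries were compared on log2(FPKM + 1) with limma 3.58.1 (R 4.3.3), two-sided, with an intensity trend, no replicate block and Benjamini-Hochberg adjustment at 0.05. The code was tested on simulated data. Ratios are of population mean FPKM. Each SE is that of the log2 difference between populations from limma, with variance shared across genes. The members and the 15 lists (205 genes, 2 not found) were chosen with earlier results of these data known. All members are named. From each pathway list up to 4 called genes with the largest log2 differences were named by rule, of which some are not reported here; Plat, Akt1, Fos, Egr1, Pros1, Tyro3, Nrp1, Nrtn, Gfra4, Pspn, Col8a1, Myc, Spry2 and Dusp5 and the marker genes were added after their values were seen. Erythroid markers summed to at most 1.16 FPKM in any library, with none tested. Coordinates are from GENCODE M21 (GRCm38), which all 45 loci overlapped. The loci of Pdgfa, Ddr2, Ntrk3 and Nrg1 covered under 90% of the annotated span. Promoters are from RefSeq (GRCm38.p6). Alternatives changed the pseudocount (0.1, 0.5), the filter (none, 5 FPKM), the scaling, the variance model, the block and the libraries used.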

Additional observations from a re-analysis of the deposited data

How the results depend on the processing

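The direction of each tested member held under all 14 alternatives that gave a value, with the exception of Vegfb, whose log2 difference was 0.092 with equal FPKM sums, 0.024 without laminin-negative replicate 2, 0.027 without laminin-positive replicate 2 and −0.081 to 0.027 over the libraries left out. Of the 27 calls, 15 held under each alternative that tested the gene and 12 were lost under at least 1. Without variance shared across genes, 1346 genes were higher and 1211 lower, with 5 members higher (3 ligands, 2 receptors), 3 receptors lower, 1 pair with both genes higher and 1 in opposite directions. With no filter, 10 receptors were higher and 5 pairs had both genes higher. Equal FPKM sums moved the median of all tested genes to a log2 difference of 0.12 and the calls to 4273 higher and 2371 lower, against 3288 and 3245, and left 5 receptors lower. Leaving out 1 library at a time gave 10 to 13 members higher and 10 to 14 lower, 5 to 6 ligands higher and 6 to 7 lower, 4 to 7 receptors higher and 4 to 7 lower, and 1 to 3 pairs with both genes higher. The lone library is then assumed to vary like the pair. Pdgfb, Tek, Nrg1 and Vegfc then no longer met the filter where a library of the population in which they were higher was left out. The cause of the other changes was not tested. Same-numbered libraries did not deviate together across genes (r = 0.00809), and the labels do not state a pairing. With so few libraries, this value cannot show whether same-numbered libraries shared a mouse, a litter or a day. With the replicate block, 3376 genes were higher and 3343 lower, and the members' counts were 12 and 15, with no member's call changed. FPKM without read totals limits what can be said of genes below about 1 FPKM.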
